A study of Mus musculus with 29 samples.

Results

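Genes that spread over more than 700 kilobases of the genome were followed through 29 libraries of ribosome-bound RNA from mouse cortex. The span of each gene came from the 2 deposited tables themselves: a raw count divided by the library total and by the RPKM value (reads scaled by gene length and library total) gives the length the authors divided by. That length was the same in every library. A gene was taken when the length exceeded 700000 bases and its mean raw count over the libraries was at least 10. The genes were thus selected on these lengths and mean counts, which are given as a description: 119 of 22327 gene symbols met both conditions, and all 119 also passed the low-count filter of the tests below. Of 120 symbols over the length, 1 had too few counts.

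Very long genes owe their length to introns, and each transcript takes hours to copy and must have those introns removed. In the brain, many of the longest genes encode cell adhesion molecules, receptors and scaffolds of the synapse and are transcribed mainly in neurons. Because the introns are so long, even sparse sequencing of unspliced RNA or of DNA adds many reads to such a gene when reads are counted over its whole span.

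All mice were 6 months old, carried Cx3cr1CreErt2/+ and received 6 tamoxifen gavages of 100 mg/kg at an age of 4 to 6 weeks. The labels give both sexes in every group, in differing proportions. Cx3cr1 drives the recombinase in microglia and other macrophages, so the green fluorescent tag on ribosomal protein L10a is meant to mark their ribosomes, which were pulled out of cortex lysate after nuclei had been spun away. The 5xFAD iPKR group (4 libraries) carried 5xFAD, human transgenes with familial Alzheimer mutations that give amyloid plaques, with Eef1a1LSL.NS3.eGFPL10a.iPKR/+ and was given VEGF and ASV. The iPKR ASV group (5 libraries) carried the same construct without 5xFAD and had VEGF and ASV, and the iPKR vehicle group (4 libraries) had VEGF and the PEG and DMSO vehicle. PKR is a kinase of the integrated stress response that phosphorylates the translation factor encoded by Eif2s1. The 5xFAD Eif2A group (3 libraries) and the Eif2A group (4 libraries) carried Eif2s1A/A and a transgene labelled Tg(Eif2s1), with and without 5xFAD, and tamoxifen alone. The sample labels give these Eif2A mice the plain tag Eef1a1LSL.eGFPL10a/+, while the series text leaves it out and names the transgene Tg(flEifs1). The 5xFAD TRAP group (4 libraries) carried 5xFAD and the plain tag and was given VEGF and ASV, and the TRAP group (5 libraries) carried the plain tag and had tamoxifen alone. VEGF was dosed at 1 µg/kg and ASV at 5 mg/kg for 4 weeks, from 4 to 5 months of age in iPKR mice and from 5 months in 5xFAD mice. The drug therefore differs as well as the genotype wherever TRAP, Eif2A or 5xFAD Eif2A mice are compared with a group that had VEGF. The labels do not say whether each library came from a separate mouse, so the p-values below measure the spread between libraries.

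Library totals ran from 1662486 to 31998042 counts with a median of 6048524. The labelled cell type was checked against marker lists. The summed share of 16 microglial markers was 0.07651% to 1.916% of counts in the 13 libraries with the iPKR construct and 3.556% to 6.095% in the 16 libraries without it. The sum of 11 neuronal markers ran the other way, at 0.5375% to 3.844% with the construct and 0.06203% to 0.4434% without it. Between iPKR vehicle and TRAP libraries, 8 of 9 astrocyte markers rose and 1 fell (edgeR). Of the oligodendrocyte and precursor markers 7 of 10 and 4 of 5 rose and 0 fell, and of 11 endothelial markers 4 rose and 1 fell. Of all tested genes 28.6% were called higher and 25.4% lower. In RNA pulled out of cortex lysate, fewer cells of a type, less RNA per cell and a larger part of untagged RNA cannot be told apart.

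One library stands apart in the long genes themselves. In iPKR ASV replicate 4, the 119 genes took 3.571% of all counts, against 0.9685% to 1.314% in the other 4 libraries of its group. It was the highest library of its group for 117 of the 119 genes (98.3%), a position it held for 35.1% of all tested genes. Per library total, the excess over the median of the other 4 libraries, in CPM (counts scaled to a common library total), had a median of 184.9 per megabase of span, with quartiles of 144.9 and 217.6. The excess depended little on how strongly a gene was read elsewhere: it had a median of 181 CPM per megabase for the 40 long genes with the lowest TRAP levels and 198.8 for the 40 with the highest, while the median ratio to the other libraries was 9.27 and 2.29. Agbl1, a carboxypeptidase gene named after its values were seen, had 175 CPM per library total in that library, against a median of 12.4 CPM in the other 4. Fhit, which encodes a small nucleotide hydrolase, had 351.3 CPM there, against a median of 13.2 CPM. Camta1 was the single long gene below the median of the other 4, with a ratio of 0.794. The library also had the highest share of nuclear long noncoding RNAs, at 0.5042% of counts. Its part in results from the iPKR ASV group is shown by giving them with and without it; the origin of the excess was not tested.

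**Figure D1:**
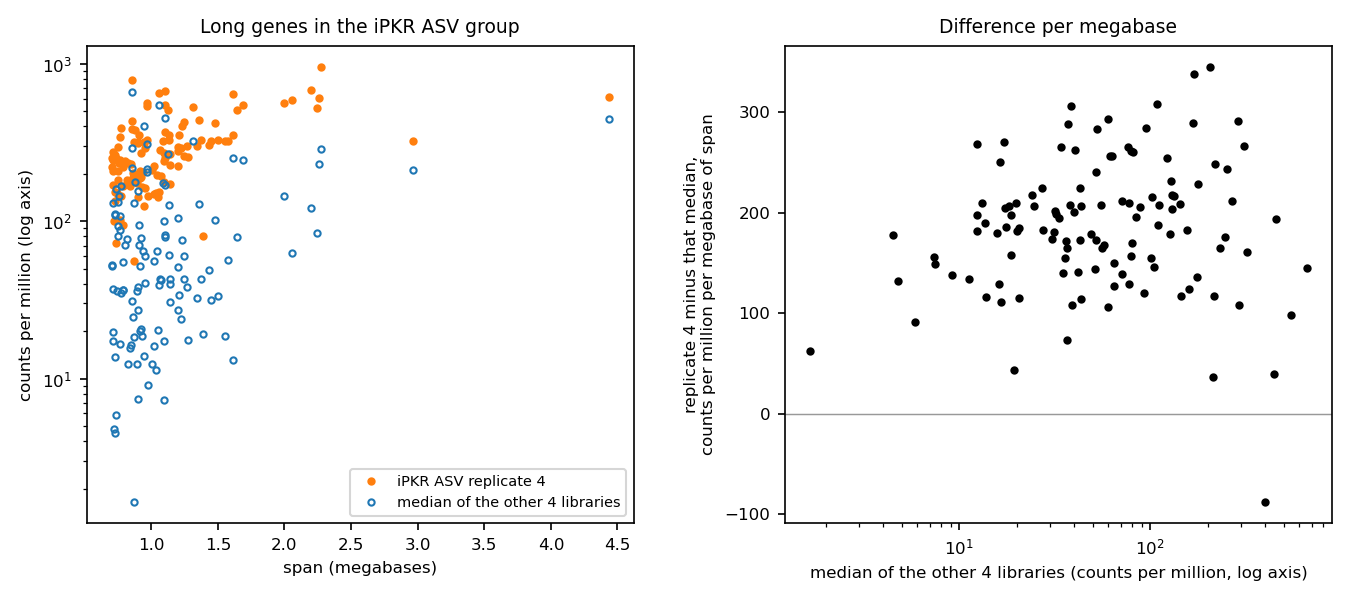
Left, CPM per library total (log axis) of the 119 long genes against span in iPKR ASV replicate 4 (filled) and as the median of the other 4 libraries of that group (open). Right, the difference per megabase of span against that median, whose quartiles are 144.9 and 217.6.

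Spans had a median of 968.4 kilobases, against 18.7 kilobases over all symbols, and 57 genes exceeded 1000000 bases. The longest were Gm20388 (4434882 bases), Fgfr2 (2960900 bases), which encodes a fibroblast growth factor receptor, and Ptprd (2270724 bases), a receptor phosphatase of the synapse. Just inside the threshold lay Nav2 (701375 bases) and Mgat4c (709983 bases). Just outside lay Fgf14 (699221 bases), Grik2 (689307 bases) and Plcb1 (689192 bases). Their log2 fold changes between iPKR vehicle and TRAP libraries were 0.10 and 0.77 inside and 2.14, 1.07 and 2.53 outside. All lay within the range of the list (-2.75 to 2.81), and each named gene outside was above each named gene inside.

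In GENCODE release M21 (genome build mm10), 117 of the 119 symbols were found, 116 of them protein coding, on 20 chromosomes. Chromosome 1 held 11 of the genes and chromosome X held 7. For 104 genes the authors' length was within 0.1% of the annotated span. Exons made up a median of 0.985% of that span, against 18.4% over all symbols found, so the authors' length covers introns. Arhgap26 and Chd1, a chromatin remodeller, were annotated at 433817 and 67644 bases, against 774751 and 1689932 bases in the authors' values. Levels per length were low: the mean RPKM in TRAP libraries had a median of 0.00966 over the 119 genes, against 0.548 over all tested genes. That gap follows in part from dividing by introns.

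Genes lying inside other genes bear on what a count of a long gene can hold. Among GENCODE coding genes that lie inside another coding gene, 6.23% (24 of 385) on the same strand and 4.81% (26 of 541) on the opposite strand had a row in the count table used here. Among those inside no other coding gene it was 77.9% (16385 of 21028). The 119 genes contain 131 coding genes, within 19 of them, and 0 of the 131 had a row. Gm20388 alone, a gene model on chromosome 8 from 119910841 to 124345722, spans 71 of them, and Fgfr2 spans 29. Of the 131, 1 is on the marker lists used here. Whether reads of such inner genes were counted for the outer gene was not tested, and the strand setting of the counting is not given in the sources used here. Leaving out these 19 genes and those with another length leaves 87, for which results are given below where they differ.

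The promoters of 3 genes are shown, of a long gene that fell and of 2 that rose between the iPKR vehicle and TRAP groups. Each is the RefSeq window (GRCm38.p6) of 250 bases before and 50 after the most upstream annotated start, with every CG pair in capitals. Inpp4b lies at chr8:81342312-81342611, Negr1 at chr3:156561544-156561843 and Ctnnd2 at chr15:30172284-30172583, all on the plus strand.
Inpp4b: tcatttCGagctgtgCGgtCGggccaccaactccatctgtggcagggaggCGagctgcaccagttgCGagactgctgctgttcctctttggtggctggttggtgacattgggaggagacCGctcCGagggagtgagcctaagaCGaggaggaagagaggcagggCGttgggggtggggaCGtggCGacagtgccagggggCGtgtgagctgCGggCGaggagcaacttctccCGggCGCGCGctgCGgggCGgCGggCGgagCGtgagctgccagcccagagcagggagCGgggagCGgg
Negr1: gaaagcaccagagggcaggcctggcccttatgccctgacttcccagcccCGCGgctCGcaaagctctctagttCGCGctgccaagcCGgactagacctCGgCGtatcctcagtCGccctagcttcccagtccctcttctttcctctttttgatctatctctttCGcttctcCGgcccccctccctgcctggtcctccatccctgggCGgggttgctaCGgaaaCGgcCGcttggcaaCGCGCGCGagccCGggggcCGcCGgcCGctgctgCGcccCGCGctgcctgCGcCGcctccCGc
Ctnnd2: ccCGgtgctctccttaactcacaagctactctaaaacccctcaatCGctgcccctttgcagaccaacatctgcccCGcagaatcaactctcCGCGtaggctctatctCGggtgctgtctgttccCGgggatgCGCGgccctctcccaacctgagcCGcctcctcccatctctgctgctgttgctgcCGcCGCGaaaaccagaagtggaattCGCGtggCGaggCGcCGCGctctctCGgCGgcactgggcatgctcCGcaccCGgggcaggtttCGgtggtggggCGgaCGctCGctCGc
The windows hold 25, 29 and 28 CG pairs. Over the 90 long genes with a window the median was 14 CG pairs, against 7 over all 27025 symbols, and 37.8% of the long genes had at least 20, against 26.8% of all symbols. The gene that fell and those that rose differed by at most 4 pairs.

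Across the groups, the 119 genes together took a share of the library that separated iPKR from the rest. It was 0.9378%, 1.029%, 0.8164% and 0.9225% in the 5xFAD iPKR libraries, and 1.314%, 1.111%, 0.9685%, 3.571% and 1.26% in the iPKR ASV libraries. It was 1.258%, 0.9899%, 1.145% and 0.9977% in the iPKR vehicle libraries. All 13 iPKR libraries lay above all others. The 5xFAD Eif2A libraries had 0.1786%, 0.1819% and 0.1931%, and the Eif2A libraries had 0.2736%, 0.3263%, 0.3088% and 0.2603%. The 5xFAD TRAP libraries had 0.2754%, 0.2573%, 0.258% and 0.2519%, and the TRAP libraries had 0.3125%, 0.2791%, 0.2928%, 0.2983% and 0.2913%. The 3 5xFAD Eif2A libraries were the lowest of the 29.

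Neuronal markers did not move in step with the long genes. The mean share of the long genes was 3.72 times as high in iPKR vehicle as in TRAP libraries, and that of the 11 neuronal markers 6.63 times as high. Within the 5xFAD iPKR group the long genes kept to 0.8164% to 1.029%, while the neuronal markers were at 3.391% and 3.844% in replicates 1 and 2 and at 0.5994% and 0.5375% in replicates 3 and 4. Nuclear long noncoding RNAs (7 genes, Malat1 among them) had the opposite order there, with 0.01607% and 0.01817% in replicates 1 and 2 and 0.1522% and 0.1781% in replicates 3 and 4. The ratio of long genes to neuronal markers was thus 0.2765 and 0.2676 in replicates 1 and 2 and 1.362 and 1.716 in replicates 3 and 4. Replicates 1 and 2 are the batch 1 libraries of this group, so batch and library cannot be told apart. Similarly, iPKR ASV replicate 3, with 2.64% of counts in neuronal markers, had the lowest ratio of its group (0.3669) and the lowest share of nuclear RNAs (0.04276%).

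Some long genes had the order of the neuronal markers in these 4 libraries, and others had the order of the nuclear RNAs. Dgkb, a diacylglycerol kinase of neurons, had 233.4 and 205.4 CPM in 5xFAD iPKR replicates 1 and 2, against 63.32 and 60.16 CPM in replicates 3 and 4 (CPM here and below are scaled by TMM factors). Asic2, an acid-sensing ion channel, had 84.11 and 103.6 CPM in replicates 1 and 2, against 159.6 and 181.5 CPM in replicates 3 and 4. In all, replicates 1 and 2 were both above replicates 3 and 4 for 44 long genes (37.0%, against 26.0% of all tested genes) and both below for 41 (34.5%, against 40.4%). These shares are a description of 4 libraries, and both orders were also common among all tested genes.

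**Figure D2:**
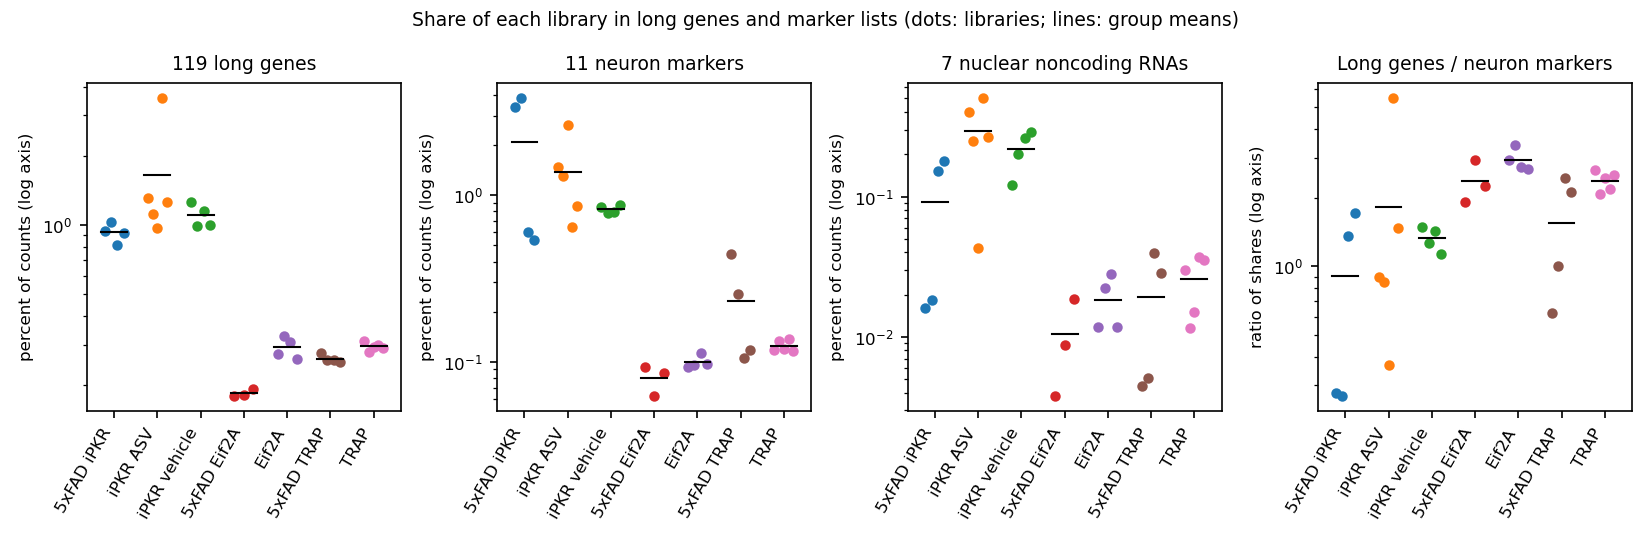
Percent of each library's counts (log axes) in the 119 long genes, in 11 neuronal markers and in 7 nuclear long noncoding RNAs, and the ratio of the first to the second; dots are libraries and lines are group means. iPKR groups lie above the others in long genes, and iPKR ASV replicate 4 lies highest at 3.571%, while neuronal markers and nuclear RNAs vary within the 5xFAD iPKR group.

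Comparing iPKR vehicle with TRAP mice asks what the construct, with VEGF and vehicle, does to the ribosome-bound RNA. Of the 119 long genes, 70 were higher and 6 lower in iPKR vehicle libraries (edgeR quasi-likelihood test, Benjamini-Hochberg adjusted p under 0.05 over 16074 genes). Of all tested genes, 54.1% were called, 28.6% higher and 25.4% lower, beside 58.8% and 5.04% of the long genes. The median log2 fold change was 1.31 over the long genes and 0.17 over all tested genes. The genes that rose had log2 fold changes of 0.80 to 2.81.

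Adhesion and synapse organisation was the largest role list among the long genes. Of its 42 members, 32 rose and 1 fell, with a median log2 fold change of 1.63. Negr1, a neuronal growth regulator anchored to the membrane, had 110.5, 78.59, 103 and 88.74 CPM in iPKR vehicle libraries, against 22.19, 11.78, 11.34, 12.65 and 11.35 CPM in TRAP libraries. The groups did not overlap, and the log2 fold change was 2.81 ± 0.25 (SE; edgeR quasi-likelihood test, adjusted p = 1.03e-09). Ctnnd2, a catenin of dendrites and spines, had 429.9, 269.2, 309.7 and 250.7 CPM in iPKR vehicle libraries, against 70.65, 55.69, 50.58, 64.19 and 47.89 CPM in TRAP libraries. Again every iPKR vehicle library was above every TRAP library, with a log2 fold change of 2.40 ± 0.19 (edgeR adjusted p = 2.30e-10). Lrrc4c, a ligand of netrin G at synapses, was 2.78 higher on the log2 scale and Ptprd 2.15 (edgeR). Dlgap1, a postsynaptic scaffold that also rose, averaged 537.9 ± 52.8 CPM in iPKR vehicle libraries (SD, n = 4) and 116.5 ± 18.4 CPM in TRAP libraries (SD, n = 5).

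Other roles moved the same way with smaller counts. Among receptors and ion channels 8 of 11 rose and 0 fell (median log2 fold change 1.76). Among axon guidance and growth factor genes 5 of 11 rose and 0 fell (median 1.01), and Fgfr2 was not called. Fgfr2 had 502.2 CPM in iPKR vehicle replicate 1, against 96.7 to 111.7 CPM in the other 3 libraries of the group and 71.26 to 234.6 CPM in TRAP libraries. Of 8 RNA-binding and transcription genes 6 rose and 0 fell (median 1.53). Signalling and vesicle genes were the most mixed, with 9 of 26 higher and 2 lower (median 0.83). The role lists are not complete: the channel gene Asic2, Camta1 and Chd1 are on none of them. Of 21 long genes on no role list, 10 rose and 3 fell (median 1.12). Anks1b, a postsynaptic scaffold among these, had 497.4, 350.3, 355.3 and 338.8 CPM in iPKR vehicle libraries, against 87.88, 43.61, 55.99, 65.7 and 76.16 CPM in TRAP libraries. It had the smallest p of all long genes in this comparison (log2 fold change 2.49 ± 0.19, edgeR adjusted p = 9.80e-11), with no overlap. Camta1, a calcium-responsive transcription factor, averaged 347.5 ± 89.8 CPM in iPKR vehicle libraries (SD, n = 4) and 85.9 ± 26.4 CPM in TRAP libraries (SD, n = 5), and also rose.

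Long genes that fell include March1 and Inpp4b. March1, a ubiquitin ligase that removes antigen-presenting molecules from the surface of immune cells, lies on chromosome 8 from 65617900 to 66471637. It had 44.92, 16.86, 31.53 and 26.34 CPM in iPKR vehicle libraries, against 140.7, 177.3, 166.7, 128.7 and 164.2 CPM in TRAP libraries. The groups were far apart, and the log2 fold change was -2.75 ± 0.35 (edgeR adjusted p = 2.11e-07). Inpp4b, a phosphatase of inositol lipids on chromosome 8 from 81342556 to 82127914, had 27.06, 5.81, 9.25 and 12.84 CPM in iPKR vehicle libraries, against 117.1, 84.73, 91.79, 64.89 and 53.27 CPM in TRAP libraries. Its log2 fold change was -2.58 ± 0.43 (edgeR adjusted p = 1.24e-05), again without overlap. Fhit (log2 fold change -1.93), Pard3b, a cell polarity protein (-2.03), and Sdk1, a synaptic adhesion molecule (-1.70), fell at low levels, and the sixth gene is an unnamed model. Pard3b and Sdk1 overlapped between the groups. The call of Pard3b was lost without iPKR vehicle replicate 4, and that of Sdk1 without iPKR vehicle replicate 1 or 2 or TRAP replicate 3. All 16 microglial markers tested fell here, with a median log2 fold change of -4.43.

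**Figure D3:**
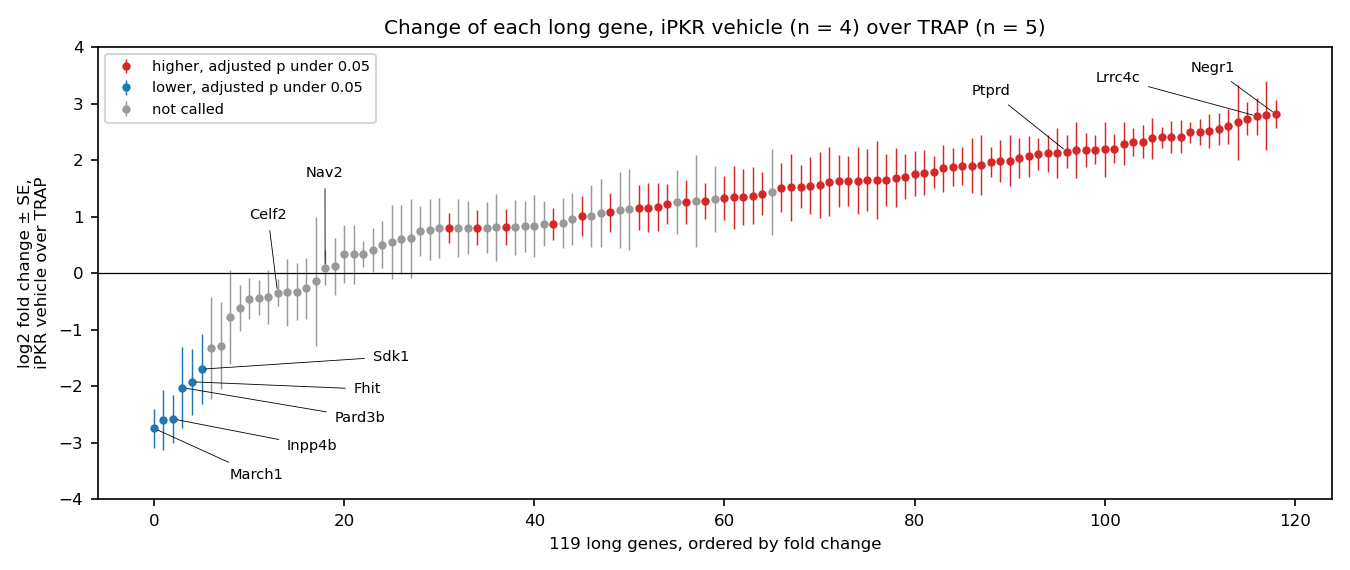
Log2 fold change ± SE of the 119 long genes in iPKR vehicle (n = 4) over TRAP (n = 5) libraries, ordered by value; red and blue mark genes called higher and lower. Most of the list is above 0, with 70 called higher, and March1 and Inpp4b lie at the low end.

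Several of the long genes most abundant in TRAP libraries were not called. Celf2, an RNA-binding splicing regulator, had the highest mean RPKM of the list in TRAP libraries. It had 265, 265.4, 311.4 and 241.2 CPM in iPKR vehicle libraries, against 347.1, 382.1, 434.9, 345.8 and 222.1 CPM in TRAP libraries, which overlapped. It was not called (log2 fold change -0.35). Chd1 had 316.6, 322.8, 237.1 and 324.6 CPM in iPKR vehicle libraries, against 223.9, 222.6, 201.4, 206.5 and 176.6 CPM in TRAP libraries, which did not overlap but were not called by edgeR (log2 fold change 0.34). Gm20388 had 338.1, 476.3, 156.6 and 139.1 CPM in iPKR vehicle libraries, against 54.3, 132.6, 85.65, 149 and 61.93 CPM in TRAP libraries. It rose although the groups overlapped (log2 fold change 1.41 ± 0.38, edgeR adjusted p = 0.00282). Within batches, the median log2 fold change of the long genes was 1.46 in batch 1, with 70 higher and 6 lower, where 26.7% of all genes tested were called higher and 27.3% lower. It was 1.10 in batch 2, where TRAP has a single library, with 32 higher and 3 lower, and 8.78% of all genes tested were called higher and 9.79% lower. In the same comparison all 11 neuronal markers rose (median 2.69), as did 5 of 7 nuclear RNAs (median 1.84) and 6 of 7 mitochondrially encoded genes (median 1.39); their part in the result was not tested.

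With plaques, comparing 5xFAD iPKR with 5xFAD TRAP mice asks the same of the construct where both groups had VEGF and ASV. The groups differ in labelled sex, which is in the model. Female are 5xFAD iPKR replicates 1, 3 and 4 and 5xFAD TRAP replicate 3, and the rest are male. In 5xFAD iPKR libraries 93 long genes were higher and 4 lower, where 47.9% of all tested genes were called, 25.0% higher and 23.0% lower. The median log2 fold change was 2.26 over the long genes and 0.21 over all tested genes. No library is in the groups of both iPKR comparisons, but both come from the same fit, with shared batch and sex terms. Of the 70 genes that rose in iPKR vehicle libraries 69 (98.6%) also rose here, which is 74.2% of the 93, and 0 were called in opposite directions. The same overlap was not counted over all tested genes, so whether it is particular to the long genes was not tested. All 11 long genes on the list of receptors and ion channels rose (median 2.57). So did 38 of 42 on the adhesion list (median 2.59) and 16 of 26 on the signalling list (median 1.85).

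Anks1b had 277.3, 300.1, 305.5 and 315.6 CPM in 5xFAD iPKR libraries, against 57.4, 48.22, 62.95 and 63.29 CPM in 5xFAD TRAP libraries. These groups were tight and did not overlap (log2 fold change 2.45 ± 0.21, edgeR adjusted p = 3.54e-08). Asic2 had 84.11, 103.6, 159.6 and 181.5 CPM in 5xFAD iPKR libraries, against 16.35, 11.51, 26.42 and 37.84 CPM in 5xFAD TRAP libraries. These did not overlap either (log2 fold change 2.86 ± 0.27, edgeR adjusted p = 3.54e-08). Ctnnd2 was 2.14 ± 0.21 higher on the log2 scale. March1 had 29.78, 18.35, 56.03 and 42.05 CPM in 5xFAD iPKR libraries, against 109.5, 105.2, 149.7 and 159.3 CPM in 5xFAD TRAP libraries, and was lower without overlap (log2 fold change -1.64 ± 0.35, edgeR adjusted p = 0.000422). Inpp4b also fell (-1.33; adjusted p = 0.0530 by edgeR without 5xFAD iPKR replicate 2), as did Celf2 (-0.73), whose groups overlapped, and an unnamed model.

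The construct and the neuronal share differ together in this comparison too. All 11 neuronal markers rose (median 2.38) and all 16 microglial markers fell (median -2.89). Without the 3 libraries richest in neuronal markers (5xFAD iPKR replicates 1 and 2 and iPKR ASV replicate 3), 78 long genes were higher and 2 lower, with a median log2 fold change of 1.74. Of all genes tested in that fit, 20.1% were called higher and 17.5% lower, with a median of 0.23. The median was 2.48 in batch 1, with 79 long genes higher and 5 lower, where 18.3% of all genes tested were called higher and 24.2% lower. It was 1.88 in batch 2, with 70 higher and 1 lower, where 13.1% of all genes tested were called higher and 10.3% lower. The rise was thus measured also in the 2 5xFAD iPKR libraries with the lower neuronal shares. Those shares, 0.5994% and 0.5375%, were still above the 0.1053% and 0.1182% of the batch 2 libraries of 5xFAD TRAP. The construct and the neuronal share cannot be told apart there either.

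**Figure D4:**
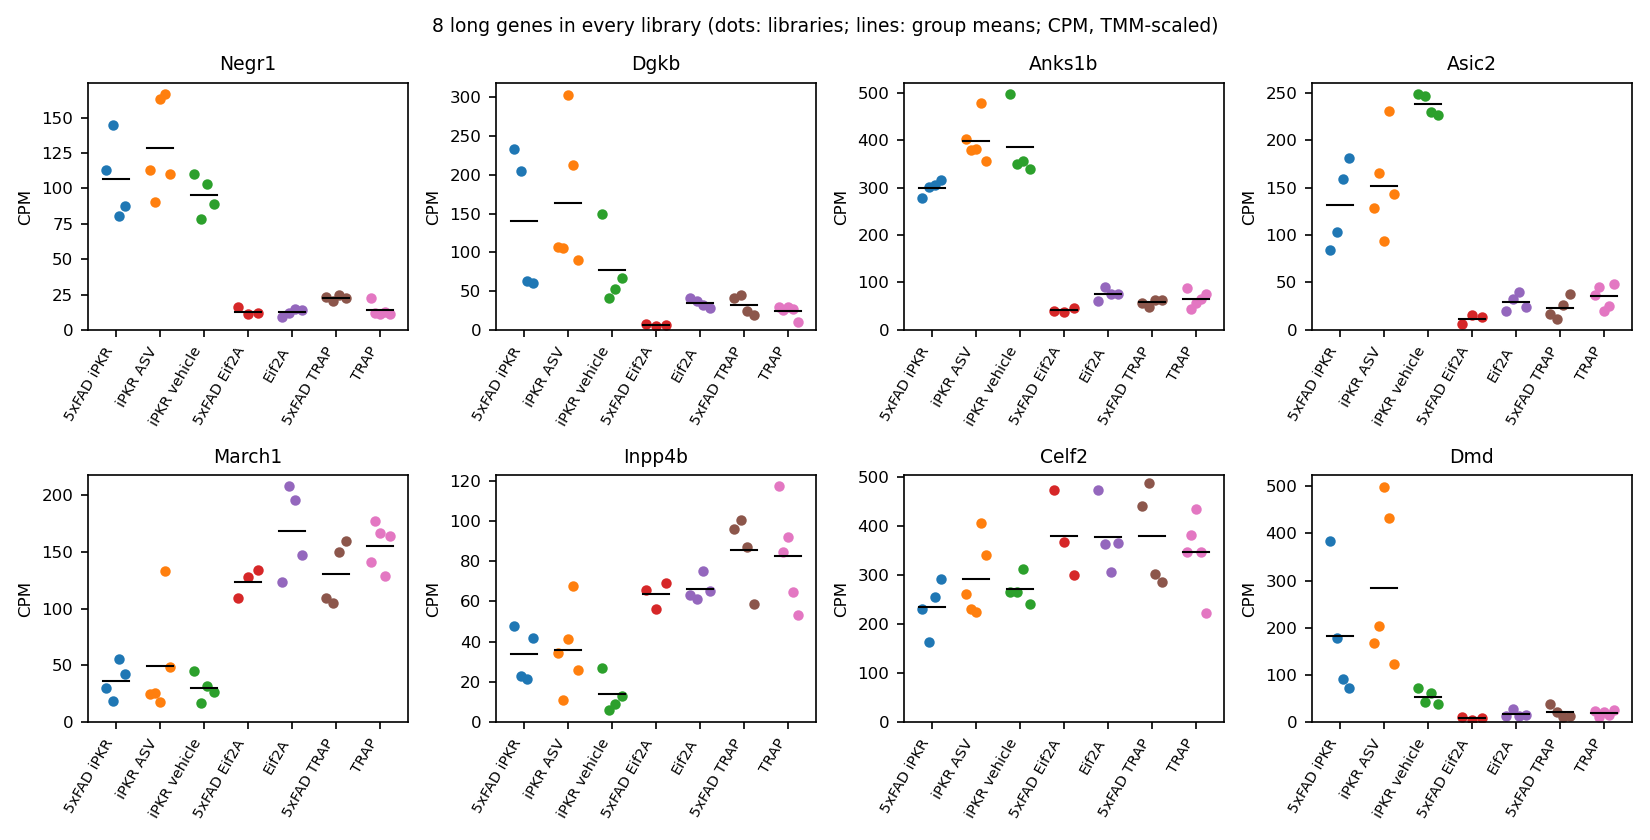
TMM-scaled CPM of 8 long genes in every library, by group; dots are libraries and lines are group means. Negr1, Dgkb, Anks1b and Asic2 have higher means in all iPKR groups than in the others, March1 and Inpp4b are low there, Celf2 overlaps among groups, and Dmd is highest in some iPKR ASV and 5xFAD iPKR libraries.

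The iPKR ASV and iPKR vehicle groups differ by the drug given with VEGF. Of the long genes, 4 were higher and 0 lower in iPKR ASV libraries, where 0.423% of all tested genes were called, 0.317% higher and 0.106% lower. The median log2 fold change was 1.13 over the long genes and 0.01 over all tested genes, and 108 of the 119 values were positive. This rests on iPKR ASV replicate 4: without it 0 long genes and 0.0642% of all genes tested were called by edgeR. In that fit 24 long genes had an unadjusted p under 0.05 (9.73% of all genes tested had one), and the median was 0.45. The share of the list called was 3.36% with all libraries, 15.1% without iPKR ASV replicate 2 and 7.56% without replicate 3, and 1.68%, 0.84% and 0.84% without iPKR vehicle replicates 2, 3 and 4. In those 5 fits 1.12%, 0.479%, 0.119%, 0.432% and 0.213% of all genes tested were called. DESeq2, on all libraries, called 31.1% of the list and 3.27% of all genes. Batch 1, which does not hold that library, gave a median of 0.34 with 2 long genes higher and 1 lower (1.01% and 1.06% of all genes tested), and batch 2 gave 1.55. The share of the long genes averaged 1.16% ± 0.16 (SD, n = 4) in the other iPKR ASV libraries and 1.10% ± 0.13 (SD, n = 4) in iPKR vehicle libraries, which overlapped.

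Dmd, which encodes dystrophin and lies on chromosome X from 82948870 to 85206141, had 168.2, 202.7, 498.4, 431.5 and 123.4 CPM in iPKR ASV libraries, against 71.7, 43.7, 61.81 and 38.4 CPM in iPKR vehicle libraries. Each iPKR ASV library was above each iPKR vehicle library, and replicate 3 rather than replicate 4 was highest. The log2 fold change was 2.35 ± 0.47 (edgeR adjusted p = 0.0346) with all libraries and 1.68, not called, without replicate 4. Exoc4, a subunit of the exocyst that tethers vesicles, had 104.7, 75.11, 135.5, 187.2 and 45.1 CPM in iPKR ASV libraries, against 42.68, 37.67, 38.05 and 39.74 CPM in iPKR vehicle libraries. Its log2 fold change was 1.46 ± 0.30 (edgeR adjusted p = 0.0367), and 0.94 and not called without replicate 4. Agbl4, a carboxypeptidase that trims glutamates from tubulin, had 46.44, 23.59, 27.39, 215.7 and 37.35 CPM in iPKR ASV libraries, against 12, 18.09, 23.76 and 13.28 CPM in iPKR vehicle libraries, which overlapped. Its log2 fold change of 1.94 (edgeR adjusted p = 0.0474) was 1.19 and not called without replicate 4. The fourth gene, Ctnna2, an alpha catenin of neurons, was named after its values were seen (log2 fold change 1.17, edgeR adjusted p = 0.0490).

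Markers of neurons and of vessels were not called between these groups. Of the 11 neuronal markers 0 were called, with a median of 0.25, and the endothelial markers had a positive fold change in 11 of 11 genes (median 1.88) with 0 called by edgeR. Endothelial shares were 0.0441%, 0.01914%, 0.00463%, 0.04752% and 0.009688% in iPKR ASV libraries, against 0.005132% to 0.008754% in iPKR vehicle libraries. Whether these have a part in the higher long-gene counts was not tested.

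Comparisons of 5xFAD mice with mice of the same construct ask what plaques change. The median log2 fold change of the long genes was below 0 in all 3. Between 5xFAD iPKR and iPKR ASV libraries 0 long genes were higher and 3 lower, where 1.72% of all tested genes were called, 1.54% higher and 0.180% lower, and the median was -0.72 (all tested genes 0.00). Sgcz, a sarcoglycan, had 1.61, 7.1, 11.9 and 9.13 CPM in 5xFAD iPKR libraries, against 46.88, 20.38, 3.24, 192.7 and 43.42 CPM in iPKR ASV libraries. The groups overlapped through iPKR ASV replicate 3, and the log2 fold change was -2.24 ± 0.51 (edgeR adjusted p = 0.0189). Kcnip4, a potassium channel interactor, had a log2 fold change of -1.58 and Nrg3, a neuregulin that binds ErbB4, one of -1.41. All 3 calls were lost without iPKR ASV replicate 4, when the log2 fold changes were -1.95, -1.21 and -1.11 and the median of the long genes was -0.28 (15 of 119 with an unadjusted p under 0.05, and 13.2% of all genes tested). Of all genes tested without that library 1.33% were called. Leaving out other single libraries moved the share called to between 0% and 8.4% (1.08% to 3.37% of all genes tested). DESeq2 called 13.4% of the list and 4.55% of all genes. Within batches the median was -0.20 in batch 1 and -1.27 in batch 2.

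Between 5xFAD Eif2A and Eif2A libraries 0 long genes were higher and 11 lower, or 9.24% of the list, where 3.1% of all tested genes were called, 2.08% higher and 1.03% lower. The median was -0.87 (all tested genes -0.06), and 107 of 119 values were negative. Dgkb had 7.84, 4.74 and 6.15 CPM in 5xFAD Eif2A libraries, against 41.6, 36.69, 32.31 and 27.88 CPM in Eif2A libraries. The 2 groups were well separated (log2 fold change -2.46 ± 0.45, edgeR adjusted p = 0.00151). Asic2 had 6.02, 15.96 and 13.14 CPM in 5xFAD Eif2A libraries, against 19.99, 33.1, 40.35 and 24.17 CPM in Eif2A libraries (log2 fold change -1.46 ± 0.28, edgeR adjusted p = 0.00191). Auts2, a regulator of neuronal transcription, had 13.49, 16.14 and 13.31 CPM in 5xFAD Eif2A libraries, against 28.81, 54.62, 50.11 and 32.49 CPM in Eif2A libraries (log2 fold change -1.55 ± 0.29, edgeR adjusted p = 0.00197). The other 8 fell by log2 values of -2.71 to -0.87, Ctnnd2, Anks1b and Dlgap1 among them, and for all 11 the groups did not overlap, as for 147 of the 165 genes of any span called lower (89.1%). Only batch 1 holds these groups. Leaving out 5xFAD Eif2A replicate 1 gave 5.04% of the list called (1.3% of all genes), leaving out replicate 2 gave 4.2% (1.36%), and DESeq2 called 18.5% of the list and 6.42% of all genes. The neuronal markers had a median of -0.27 with 0 called, and the nuclear RNAs -0.79 with 0 called by edgeR.

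Between 5xFAD TRAP and TRAP libraries, which also differ by VEGF and ASV, 0 long genes were higher and 1 lower, where 0.79% of all tested genes were called, 0.709% higher and 0.0809% lower. The median was -0.51 (all tested genes -0.06), and 90 of 119 values were negative. The gene called was Asic2, with 16.35, 11.51, 26.42 and 37.84 CPM in 5xFAD TRAP libraries, against 36.49, 45.71, 20.4, 25.19 and 48.66 CPM in TRAP libraries. The groups overlapped, and its call (log2 fold change -1.002 ± 0.246, edgeR adjusted p = 0.0459) was lost when any one of 7 of the 9 libraries was left out. DESeq2 called 5.04% of the list and 2.15% of all genes. The neuronal markers had a median of 0.81 here, opposite in sign to the long genes, and the 7 nuclear RNAs a median of -1.33, with 0 called in either list by edgeR. Neuronal markers were at 0.4434% and 0.2567% of counts in 5xFAD TRAP replicates 1 and 2, against 0.1154% to 0.1365% in TRAP libraries.

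Whether 5xFAD acts differently on the long genes by construct was tested as a difference of differences. Of the 119 genes 0 passed in the Eif2A minus plain-tag difference, where 0.00622% of all tested genes were called. An unadjusted p under 0.05 was found for 8 (6.72%), as for 4.27% of all tested genes. Dgkb lay just over the threshold, with a log2 difference of -3.15 ± 0.57 (SE, edgeR adjusted p = 0.0556). For the ASV-treated iPKR minus plain-tag difference 0 passed, where 0.0373% of all tested genes were called (0.00622% higher and 0.0311% lower), and 5 (4.2%) had an unadjusted p under 0.05, as did 6.74% of all tested genes. The medians were -0.26 and -0.20. The second uses iPKR ASV replicate 4, and this difference was not fitted without that library. Leaving it out moved the median of 5xFAD iPKR over iPKR ASV from -0.72 to -0.28, beside -0.51 in 5xFAD TRAP over TRAP with all libraries.

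The Eif2s1A/A mice were set against the plain tag with and without plaques. Between Eif2A and TRAP libraries 0 long genes were called by edgeR and 0 by DESeq2, where 0.0% of all tested genes were called by edgeR. An unadjusted p under 0.05 was found for 7 long genes (5.88%), near the 5.67% of all tested genes, and the median log2 fold change was 0.12. Between 5xFAD Eif2A and 5xFAD TRAP libraries 0 were higher and 1 lower, where 0.168% of all tested genes were called, 0.0435% higher and 0.124% lower, with a median of -0.11. The gene was Dgkb, with 7.84, 4.74 and 6.15 CPM in 5xFAD Eif2A libraries, against 41.38, 44.93, 24.87 and 19.15 CPM in 5xFAD TRAP libraries. They did not overlap (log2 fold change -2.79 ± 0.47, edgeR adjusted p = 0.0109), and 5xFAD TRAP mice had VEGF and ASV while 5xFAD Eif2A mice had not. The call was lost without 5xFAD Eif2A replicate 2 or 3.

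Span was set against fold change over all 16074 genes. In iPKR vehicle over TRAP libraries the median log2 fold change was -0.23 below 10 kilobases, -0.06 from 10 to 30, 0.32 from 30 to 100, 0.87 from 100 to 300, 1.39 from 300 to 700 and 1.31 above 700 kilobases. The 119 genes therefore lay beside the 455 genes of the next class, and 53.9% of those were called higher. In 5xFAD iPKR over 5xFAD TRAP libraries the medians of the same classes were -0.34, -0.07, 0.37, 1.33, 2.15 and 2.26. In 5xFAD Eif2A over Eif2A libraries they ran the other way, at -0.02, 0.02, -0.07, -0.32, -0.58 and -0.87. In iPKR ASV over iPKR vehicle libraries they were -0.13, -0.05, 0.07, 0.29, 0.65 and 1.13, and without iPKR ASV replicate 4 they were -0.02, -0.02, -0.02, 0.04, 0.23 and 0.45. Between Eif2A and TRAP libraries no such order was seen, with medians from -0.08 to 0.15. Genes of one class share their libraries and are not replicates, so these medians describe the libraries compared.

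**Figure D5:**
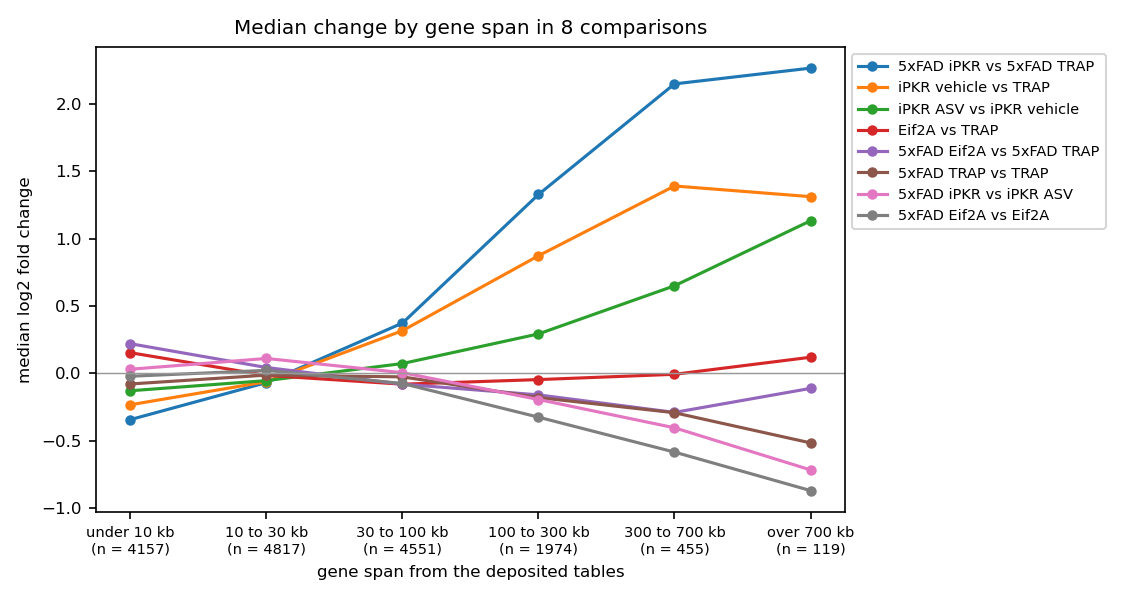
Median log2 fold change of tested genes by span class, from under 10 kilobases to over 700 kilobases, in the 8 comparisons; each line is 1 comparison, the first-named group over the second. The 5xFAD iPKR over 5xFAD TRAP line reaches 2.26 above 700 kilobases. The iPKR vehicle over TRAP line peaks at 1.39 in the class below and is at 1.31 there. Lines of 5xFAD over matching groups fall to between -0.87 and -0.51. Both lines that use the iPKR ASV group include iPKR ASV replicate 4. Without it, 5xFAD iPKR over iPKR ASV was at -0.28 above 700 kilobases.

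Per megabase of span, the median long gene held 28.6 to 37.7 CPM (per library total) in 5xFAD iPKR libraries, 30.9 to 65.7 in 4 iPKR ASV libraries and 238 in iPKR ASV replicate 4, and 30.5 to 48.3 in iPKR vehicle libraries. It held 4.85 to 5.59 in 5xFAD Eif2A libraries, 6.35 to 11.7 in Eif2A libraries, 6.83 to 9.25 in 5xFAD TRAP libraries and 7.80 to 11.9 in TRAP libraries. The 10 most counted long genes made up 18.9% of the list's counts in iPKR ASV replicate 4, against 31.1% to 42.7% in the other 4 libraries of its group, 35.1% to 43.6% in iPKR vehicle libraries and 37.9% to 48.7% in TRAP libraries. Counts in iPKR ASV replicate 4 were thus spread more evenly over the list than in those libraries. The tables give a single count per gene, so exon and intron reads cannot be told apart in them.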

How the data were processed

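Ribosome-bound polyA RNA was sequenced from 29 cortex libraries in 7 groups. The authors deposited raw counts per gene and RPKM values; reads were trimmed with Trim Galore, aligned to mm10 with HISAT2 2.2.1 and counted with featureCounts 2.0.3, per the submitters' processing notes. The feature type, strand setting and annotation of the counting are not given in the sources used here. RPKM, as deposited by the authors, served for the gene lengths and for levels per length.

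Counts were tested with edgeR 4.0.16 (R 4.3.3): minimum count 10 and minimum total 15, TMM scaling, a model with group, batch and sex over all libraries, a robust quasi-likelihood fit with 20 residual degrees of freedom, and Benjamini-Hochberg adjustment over 16074 genes at 0.05. The code was tested on simulated data. Markers and gene positions came from written lists and GENCODE. Alternatives were DESeq2 1.42.0, other scalings (limma 3.58.1 loaded with edgeR), filters, models, batches and span limits, and each library left out.

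Named genes were the 8 with the highest mean count, the 6 with the highest CPM in TRAP libraries, up to 3 called per direction and comparison, all that fell in iPKR vehicle libraries, the 3 longest, and 3 on each side of the span threshold. Exceptions are stated where named, and some genes that met the rule are not reported here. The long genes and the lists were chosen with earlier results of these data known.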

Additional observations from a re-analysis of the deposited data

Results flagged for a closer look

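In 186 sets of 4 or 5 libraries (26 genes and the shares described above, by group), 27 had 1 library set apart from the others by a gap wide for the range of its group; the 95% critical value used flags about 1 in 20 groups by chance, and the sets share libraries. Of these, 11 belong to iPKR ASV replicate 4. It held 3.571% of counts in long genes, against 0.9685% to 1.314% in the other 4, and a ratio of long genes to neuronal markers of 5.5, against 0.3669 to 1.468.

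The other 9 values of that library are single genes in TMM-scaled CPM. Ptprd had 681 CPM (184.7 to 274.7 in the others), Nrg3 263.7 (23.56 to 81.06), Kcnip4 252.4 (20.03 to 71.85), Fhit 251.4 (7.36 to 27.53) and Agbl4 215.7 (23.59 to 46.44). Sgcz had 192.7 CPM (3.24 to 46.88), Pard3b 150.6 (0.88 to 15.38), March1 133 (17.67 to 48.46) and Sdk1 103.1 (6.61 to 12.15). March1, low in the other iPKR libraries, thus reached the range of TRAP libraries in this one.

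Fgfr2 was set apart in 3 groups, with 83.35 CPM in iPKR ASV replicate 5 (192.1 to 230.2 in the others), 502.2 in iPKR vehicle replicate 1 (96.7 to 111.7) and 234.6 in TRAP replicate 3 (71.26 to 111.2). Camta1 had 729 CPM in iPKR ASV replicate 3 (227.8 to 321.2), and Nrg3 had 41.63 in 5xFAD iPKR replicate 4 (22.54 to 25.45). Among iPKR vehicle libraries, Anks1b had 497.4 CPM in replicate 1 (338.8 to 355.3), Pard3b 10.3 in replicate 3 (2.79 to 3.68), and Chd1 237.1 in replicate 3, below the others (316.6 to 324.6).

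Among Eif2A libraries, replicate 3 had 0.1136% of counts in neuronal markers (0.09356% to 0.09687%), 159.3 CPM of Dlgap1 (79.59 to 91.83) and 64.25 CPM of Exoc4 (34.4 to 38.89). Eif2A replicate 2 had 20.69 CPM of Kcnip4 (7.57 to 9.78) and 28.69 of Dmd (13.14 to 14.61). Among TRAP libraries, Negr1 had 22.19 CPM in replicate 1 (11.34 to 12.65), Mgat4c 6.97 in replicate 3 (2.67 to 3.85), and Dgkb 10.77 in replicate 5, below the others (25.95 to 29.56). The causes were not tested.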

How the results depend on the processing

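Values are the percent of long genes called and their median log2 fold change. Of 234 such values under alternatives other than leaving out 1 library 192 stayed close to those reported, and 42 moved; the causes were not tested. Where brackets hold 2 counts, these are genes of any span called higher and lower in the same fit. Without the low-count filter 1.68% were called in iPKR ASV vs vehicle (22 and 10). Without sex in the model 0% were called in 5xFAD TRAP vs TRAP (92 and 6) and 10.1% in 5xFAD iPKR vs iPKR ASV (320 and 64). It was 1.68% in iPKR ASV vs vehicle (49 and 16), with medians of 1.50 in iPKR vehicle vs TRAP and 2.11 in 5xFAD iPKR vs 5xFAD TRAP. Deviations of same-numbered libraries from the fit had correlations of -0.314 to 0.322. With 3 or 4 such pairs per comparison, these cannot decide whether replicate numbers pair the libraries. With the replicate block 0% were called in 5xFAD TRAP vs TRAP (68 and 8), 5xFAD iPKR vs iPKR ASV (123 and 12) and iPKR ASV vs vehicle (5 and 0). Batch 1 alone gave medians of 0.34 in iPKR ASV vs vehicle and 2.48 in 5xFAD iPKR vs 5xFAD TRAP. Batch 2 alone, chosen like the next setting after seeing the data, gave 0% in 5xFAD TRAP vs TRAP, 29.4% and a median of 1.10 in iPKR vehicle vs TRAP, and a median of 1.88 in 5xFAD iPKR vs 5xFAD TRAP; Celf2 (0.14) and Fgfr2 (-0.32) reversed in iPKR vehicle vs TRAP, and Fgfr2 also without iPKR vehicle replicate 1, its values with 1 library left out running from -0.22 to 1.06.

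Without the 3 neuron-rich libraries 4.2% were called in 5xFAD iPKR vs iPKR ASV, 15.1% in iPKR ASV vs vehicle and 1.68% in 5xFAD Eif2A vs 5xFAD TRAP. Of all genes tested in that fit 4.28%, 1.64% and 0.544% were called. The median was 1.74 in 5xFAD iPKR vs 5xFAD TRAP. Fits of only the 2 groups gave 5.36% and -0.25 in 5xFAD TRAP vs TRAP, where 472 genes of any span were called higher and 277 lower. They gave 21.6% in 5xFAD Eif2A vs Eif2A (1014 and 650), and 0% in 5xFAD iPKR vs iPKR ASV (9 and 1) and in iPKR ASV vs vehicle (0 and 0). It was 7.55% and -0.37 in 5xFAD Eif2A vs 5xFAD TRAP (684 and 411), and the median was 1.98 in 5xFAD iPKR vs 5xFAD TRAP. DESeq2 called 5.04% in 5xFAD TRAP vs TRAP, 18.5% in 5xFAD Eif2A vs Eif2A and 13.4% in 5xFAD iPKR vs iPKR ASV. It called 31.1% in iPKR ASV vs vehicle and 3.36% in 5xFAD Eif2A vs 5xFAD TRAP. Of all genes it called 2.15%, 6.42%, 4.55%, 3.27% and 1.72% in these comparisons. Spans over 500000 bases gave 1.35% in 5xFAD Eif2A vs 5xFAD TRAP. Spans over 1000000 bases gave 1.75% and -0.73 in 5xFAD TRAP vs TRAP, 5.26% in 5xFAD iPKR vs iPKR ASV and in iPKR ASV vs vehicle, 0% in 5xFAD Eif2A vs 5xFAD TRAP and a median of 2.45 in 5xFAD iPKR vs 5xFAD TRAP. The 87 genes with a matching span and no inner coding gene, also chosen after seeing the data, gave 0% in 5xFAD TRAP vs TRAP and 5xFAD Eif2A vs 5xFAD TRAP, and 1.15% in iPKR ASV vs vehicle.

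Leaving out 1 library at a time gave 0% to 1.68% and medians of -0.70 to -0.38 in 5xFAD TRAP vs TRAP (0.329% to 0.758% of all genes). It gave 4.2% to 10.1% in 5xFAD Eif2A vs Eif2A (1.3% to 2.61% of all genes). In 5xFAD iPKR vs iPKR ASV it gave 0% to 8.4% (1.08% to 3.37%), and in iPKR ASV vs vehicle 0% to 15.1% (0.0642% to 1.12%). It gave 0% to 0.84% and medians of -0.26 to 0.07 in 5xFAD Eif2A vs 5xFAD TRAP (0.0117% to 0.0467% of all genes). Medians were 2.15 to 2.52 in 5xFAD iPKR vs 5xFAD TRAP. Under the alternatives other than leaving out 1 library, of 452 values of single named genes 408 stayed on their side of the threshold, 37 lost their call, 5 gained one and 2 reversed.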
